A study of Mus musculus with 15 samples.

Results

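The 9 total ribosome footprint libraries of this mouse embryonic stem cell (mESC) series fell apart on a single transcript, *Tet1*. Footprints are the stretches of mRNA covered by a ribosome, so their count over a coding sequence follows how much of an mRNA is present and how heavily it is translated, and these cannot be told apart here. The clones were selected on the raw *Tet1* level of their total library: they were called Tet1-low where *Tet1* made up under 20 CPM (counts scaled to the library total) and Tet1-high where it made up over 200 CPM. The rule put 4 of the 9 clones in the Tet1-low group (2b12, 4a2, 5a1 and 4a3) and 5 in the Tet1-high group (2c3, 5a2, 2c4, 4b7 and 5a3). Each clone gave 1 total library. The 6 tagged clones also gave an immunoprecipitated (IP) library, 3 of them Tet1-low (2b12, 4a2, 4a3) and 3 Tet1-high (2c3, 2c4, 4b7), so that 15 libraries were used in all.

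All 9 clones were E14Tg2a.4 mESCs, a male line kept in serum with leukemia inhibitory factor, with no drug or differentiation treatment. In 3 clones (2b12, 2c3, 2c4) a 3xFLAG tag was inserted at both endogenous *Rps27* alleles (genotype eS27-FLAG, here *Rps27-FLAG*), in 3 (4a2, 4a3, 4b7) the tag was at *Rps27l* (*Rps27l-FLAG*), and 3 were wild-type (WT: 5a1, 5a2, 5a3). Each is 1 independently selected clone, so a difference between clone groups covers 4 and 5 clonal lines. Tet1 state was not a condition of the study and did not follow the tag: *Rps27-FLAG* had 1 low and 2 high clones, *Rps27l-FLAG* 2 low and 1 high, and WT 1 low and 2 high. It did follow the sequencing batch in part. Batch 1 (2b12, 4a2, 5a1) was all Tet1-low, batch 3 (2c4, 4b7, 5a3) was all Tet1-high, and batch 2 held 1 low clone (4a3) and 2 high clones (2c3, 5a2). Values within batch 2 are therefore given beside the main results.

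Tet1 oxidises 5-methylcytosine to 5-hydroxymethylcytosine, a step in removing DNA methylation, and with Tet2 it is an abundant Tet enzyme of mESCs. Many genes of the germ line and of imprinted loci are controlled by DNA methylation at their promoters, and Tet1 also binds CpG-rich promoters together with Polycomb and Sin3a complexes. Ccnd2, cyclin D2, is a partner of the kinases Cdk4 and Cdk6 in entry into S phase and is the other transcript that was given as a marker of the split. All clones carried the footprints of mESCs. In the total libraries *Pou5f1*, the core pluripotency factor Oct4, averaged 434 ± 21.0 CPM in Tet1-low clones (SD, n = 4) and 448 ± 14 in Tet1-high clones (SD, n = 5), and *Nanog* averaged 625 ± 28.8 and 654 ± 29.0.

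Library depth overlapped between the clone groups, but 4 of the 5 Tet1-high clones (all but 2c3) stood apart in holding almost no Y-linked footprints, as described with those genes. Total libraries held 6313827 to 8064166 counts and IP libraries 3972152 to 6673935, and the mitochondrially encoded share of the total libraries was 0.563% to 0.704% in Tet1-low and 0.462% to 0.699% in Tet1-high clones. The 10 most abundant transcripts took 3.16% to 3.2% of the counts in Tet1-low and 3.44% to 3.75% in Tet1-high total libraries, without overlap. No pair of libraries of a line looked like 1 library deposited again. Within a line, total libraries of clones of the same Tet1 state differed by a chi-square of 1.97 to 3.24 per degree of freedom over transcripts (3 pairs), against 5.49 to 7.33 for clones of different state (6 pairs). In the IP libraries the values were 1.62 to 2.69 (2 pairs) and 3.56 to 6.01 (4 pairs).

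*Tet1* (ENSMUST00000174189, GRCm38 chr10:62804577-62899118, minus strand, 13 exons, coding sequence of 6117 nucleotides) chose the groups, and its values are a description. The raw counts were 19 in 2b12, 15 in 4a2, 22 in 5a1 and 17 in 4a3. They were 2973 in 2c3, 3221 in 5a2, 2534 in 2c4, 2668 in 4b7 and 2888 in 5a3. No library lay between: the Tet1-low libraries reached 3.08 raw CPM and the Tet1-high libraries began at 401, a gap of 130-fold that leaves the thresholds of 20 and 200 CPM empty on both sides. After normalization *Tet1* averaged 2.38 ± 0.50 CPM (SD, n = 4) against 424 ± 5.69 CPM (SD, n = 5). The difference of mean log2 CPM, Tet1-low minus Tet1-high, was -7.46, the largest in size among 10950 transcripts tested.

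The IP libraries were not used to choose the clones. There *Tet1* gave 27 counts in 2b12, 12 in 4a2 and 43 in 4a3, against 1794 in 2c3, 1336 in 2c4 and 1266 in 4b7. The log2 fold change, low over high, was -6.03 (SE 0.22, edgeR adjusted p = 3.39e-09). An IP library and the total library of a clone come from the same cells and the same ribosome pellet, so this repeats the measurement in the same clones and not in other clones. Clone 4a3 had 9.63 normalized CPM of *Tet1* in its IP library against 2.09 in its total library.

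*Ccnd2* (ENSMUST00000000188, chromosome 6) followed the same split. Normalized CPM was 4.58 in 2b12, 4.67 in 4a2, 7.11 in 5a1 and 4.29 in 4a3, and 33.5 in 2c3, 40.4 in 5a2, 35.9 in 2c4, 41.2 in 4b7 and 69.6 in 5a3. Every Tet1-high clone lay above every Tet1-low clone, and the wild-type clone 5a3 stood apart at the top. The difference was -3.06 over all clones and -3.08 within batch 2. In the IP libraries the log2 fold change was -3.11 (SE 0.20, edgeR adjusted p = 2.87e-06).

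**Figure D1:**
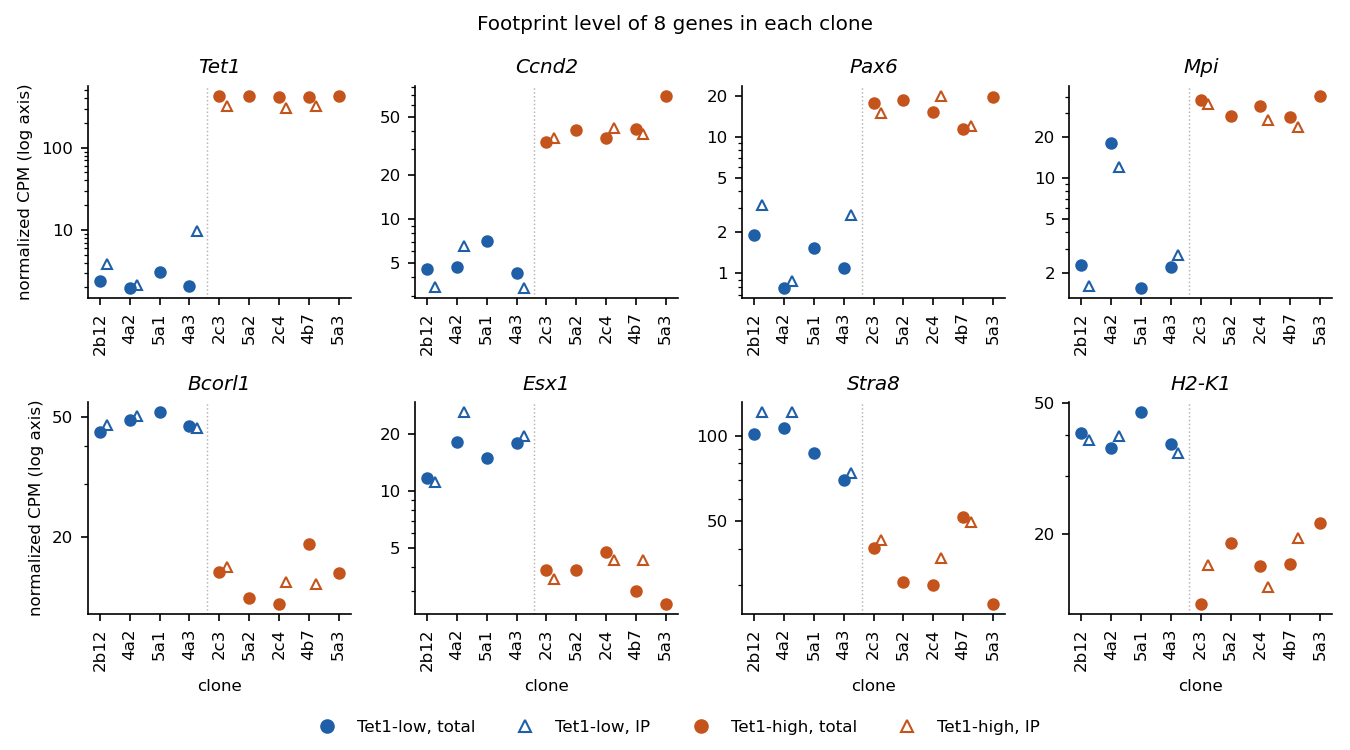
Normalized CPM (log axis) of 8 genes in each clone, with filled circles for total and open triangles for IP libraries, blue for Tet1-low and orange for Tet1-high clones, and a dotted line between the groups. In all 8 panels the total libraries of the groups do not overlap; *Mpi* in clone 4a2 (18.0 CPM) is the Tet1-low value nearest to the Tet1-high clones in its panel.

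Most neighbours of both genes were near level. Of 20 tested transcripts within 1 Mb of *Tet1*, itself included, the other 19 had differences between -0.39 and 1.14, with a median of 0.02. *Mypn*, which encodes a protein of muscle sarcomeres, was the 1 neighbour that met the separation rule given below, in the opposite direction (1.07 in the total libraries, IP log2 fold change 1.25, SE 0.32, edgeR adjusted p = 0.025). *Sirt1*, an NAD-dependent deacetylase, was 351 ± 35.7 CPM in Tet1-low (SD, n = 4) and 255 ± 10.7 in Tet1-high clones (SD, n = 5), without overlap. Around *Ccnd2* 8 transcripts were tested, and the other 7 differed by -1.06 to 0.16. *Tigar*, a fructose-bisphosphatase, was 49.5 ± 2.07 against 78.8 ± 5.05 CPM, and its IP log2 fold change was -0.64 (SE 0.09, edgeR adjusted p = 0.00088).

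To ask what else differed, a transcript was called separated where all total libraries of a clone group lay above all of the other group and the means of log2 CPM differed by at least 1. Since *Tet1* in the same libraries chose the groups, this is a description with no test. Of 10950 transcripts 159 were separated and higher in Tet1-low clones (1.45%) and 76 higher in Tet1-high clones (0.694%), together 2.15%. With no minimum difference the groups did not overlap for 1292 transcripts higher in Tet1-low (11.8%) and 1248 higher in Tet1-high clones (11.4%). Over all tested transcripts the median difference was 0.00 with an SD of 0.38. Most separated transcripts had few footprints: 154 of the 235 averaged under 10 CPM in the group where they were higher, and 17 averaged over 50 CPM.

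The IP libraries, 3 of each state, were compared by edgeR (quasi-likelihood F-test) over 10909 transcripts. With adjusted p below 0.05, 700 transcripts were higher in Tet1-low clones (6.42%) and 563 in Tet1-high clones (5.16%), together 11.6%. IP libraries that did not overlap and differed by at least 1 numbered 2.08% and 0.834% of transcripts. With the sequencing batch as a block, where only 4a3 and 2c3 of batch 2 bear on the contrast, these counts were 4 and 8. Those higher in Tet1-low were *Bcorl1*, *Epha4*, *Pxdn* and *Sgpl1*. Those higher in Tet1-high were *Tet1*, *Ccnd2*, *Spink1*, *Abcb5*, *Mcts2*, *Impact*, *Tmem126a* and the Y-linked *Uty*, of which *Uty* and *Impact* were not among the 563. Every other IP call named below did not pass with the block, and for the named genes with the largest differences the edgeR adjusted p then ran from 0.0778 (*Mpi*) to 0.673 (*Tex101*). Without the IP library of 2c4 the counts were 223 and 151, with 2b12 left out they were 424 and 359, with 4a2 left out 367 and 226, and with 2c3 left out 396 and 285.

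All but 3 of the separated transcripts kept their direction in the IP libraries. Of the 159 higher in Tet1-low clones 158 had an IP difference of the same sign, 126 did not overlap between the IP libraries of the groups (15.9% of all transcripts did so in this direction) and 107 passed the IP test. Of the 76 higher in Tet1-high clones 74 had the same sign, 67 did not overlap (15.2% of all) and 55 passed. The median IP differences were 1.18 and -1.22, beside 1.24 and -1.32 in the total libraries. Within the cell lines the median total differences were 1.38 in *Rps27-FLAG*, 1.00 in *Rps27l-FLAG* and 1.29 in WT for the former set, and -1.31, -1.20 and -1.46 for the latter. The libraries of these sets are those that chose them, so the sizes within lines are descriptions.

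**Figure D2:**
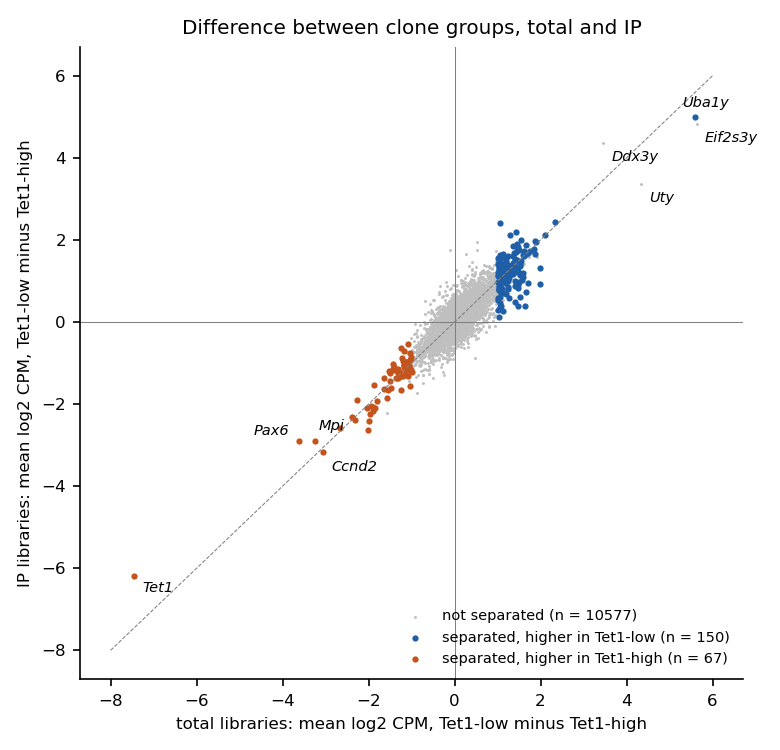
Difference of mean log2 CPM (Tet1-low minus Tet1-high) in the total libraries (x axis) and the IP libraries (y axis) for each transcript tested in both, with the separated transcripts in colour and the line of equal values dashed. *Tet1* is the point farthest to the lower left, and 4 Y-linked genes (*Uba1y*, *Eif2s3y*, *Uty*, *Ddx3y*) lie at the upper right.

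Batch 2 held clones of both states, with 4a3 its only Tet1-low clone, and where its libraries lay is given as a description. Whether a transcript followed the batch or the clone group was not tested. Batches 1 and 3 did not overlap and differed by at least 1 for 315 transcripts. For 225 of these (71.4%) the Tet1-low clone 4a3 lay nearer to batch 1 while both Tet1-high clones lay nearer to batch 3. For 36 transcripts all 3 clones of batch 2 lay on 1 side. Of the 159 and 76 separated transcripts, 99 and 55 had a difference of at least 1 in the same direction within batch 2 alone, with medians of 1.16 and -1.23.

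**Figure D3:**
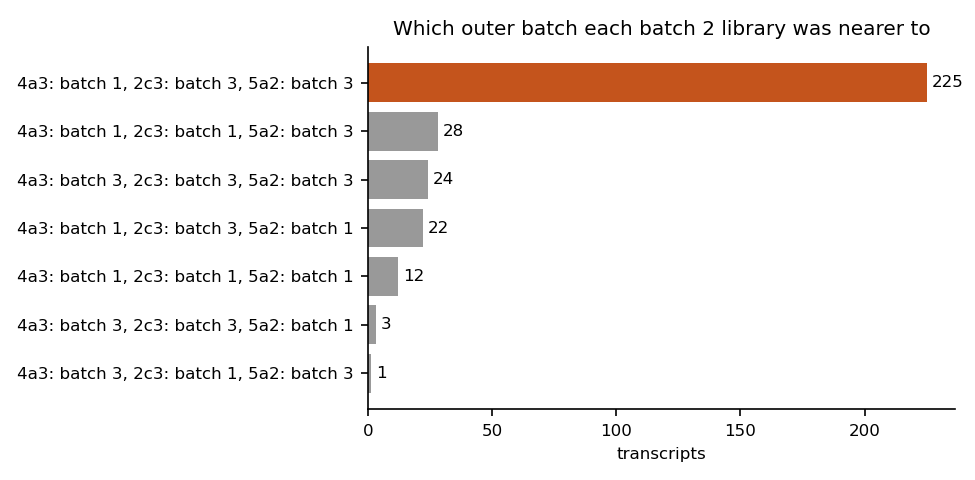
For 315 transcripts whose batch 1 and batch 3 total libraries do not overlap and differ by at least 1 (log2), the bars count transcripts by which of these batches each batch 2 library was nearer to. The orange bar (225 transcripts) is the pattern in which 4a3 sits with the Tet1-low batch and 2c3 and 5a2 with the Tet1-high batch.

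Next to *Tet1*, the largest difference toward Tet1-high clones was that of *Pax6*, a transcription factor of the eye and the neural tube. It had 1.91 CPM in 2b12, 0.778 in 4a2, 1.53 in 5a1 and 1.10 in 4a3, against 17.6 in 2c3, 18.7 in 5a2, 15.1 in 2c4, 11.4 in 4b7 and 19.6 in 5a3. The lowest Tet1-high clone, 4b7, was well above the highest Tet1-low clone. The total difference was -3.62, that within batch 2 was -3.97, and the IP log2 fold change was -2.78 (SE 0.32, edgeR adjusted p = 0.00032), with -2.47 and an adjusted p of 0.124 when the batch was a block. *Neurod1*, a basic helix-loop-helix factor of neurons and endocrine cells, was also low in all Tet1-low clones (0.613 to 1.27 CPM) and higher in all Tet1-high clones (3.84 to 5.76). Neither *Pax6* nor *Neurod1* had a Tet1-low total library over 2 CPM. Both passed the filter on low values through the Tet1-high clones alone and had to differ in the total libraries.

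*Mpi*, mannose phosphate isomerase, was off the pattern in 1 clone. It had 2.29 CPM in 2b12, 18.0 in 4a2, 1.53 in 5a1 and 2.21 in 4a3, against 37.5, 28.9, 34.2, 28.1 and 40.6 in 2c3, 5a2, 2c4, 4b7 and 5a3. Clone 4a2 thus held a level between the groups, in its IP library too (12 CPM against 1.58 in 2b12 and 2.69 in 4a3). The total difference was -3.25 and the IP log2 fold change -2.43 (SE 0.42, edgeR adjusted p = 0.0035). With each clone left out in turn the total difference of *Mpi* ran from -4.04 to -2.87 and its IP log2 fold change from -3.82 to -1.90.

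*Spink1*, a secreted trypsin inhibitor, had 2.33 to 3.21 CPM in Tet1-low and 10.3 to 21.3 in Tet1-high clones, a difference of -2.67. It was among the few transcripts that also passed with the batch as a block (edgeR log2 fold change -3.18, adjusted p = 0.00777). *Cfp*, properdin of the complement system, had 0.389 to 0.982 CPM against 3.13 to 6.72, a difference of -2.46, and was too low in the IP libraries to be tested. *Maml2*, a coactivator of Notch, differed by -2.04 and *Pdcl2*, a phosducin-like protein, by -2.0. Neither *Cfp* nor *Maml2* had a Tet1-low total library over 2 CPM. These genes passed the filter on low values through the Tet1-high clones alone and had to differ. Within batch 2 the difference of *Pdcl2* was -0.79, since the Tet1-low clone 4a3 held 3.44 CPM against 5.40 in 2c3.

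A few transcripts of the 2-cell-like state were higher in Tet1-high clones. This is a rare state of mESC cultures in which genes of the 2-cell embryo, such as the *Zscan4* cluster, are active. Of 20 genes listed for it and found in the table, 6 were tested and the rest were too low, and 3 of these were separated, all higher in Tet1-high clones (0.694% of all transcripts), namely *Tmem92* (-2.32), *Zfp352* (-1.91) and *Zscan4d* (-1.86). The median over the 6 was -1.30, against 0.00 over all transcripts. The same 3 passed the IP test with edgeR, voom and DESeq2, and with the batch as a block none passed, with 4 at an unadjusted p under 0.05. *Zfp352* and *Zscan4d* had no Tet1-low library over 2 CPM and passed the filter on low values through the Tet1-high clones alone, so they had to differ. The counts and the median describe these genes only.

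*Tmem92*, which encodes a small membrane protein, had 2.54, 2.46, 3.35 and 3.31 CPM in 2b12, 4a2, 5a1 and 4a3, and 9.09, 16.7, 14.6, 24.5 and 12.4 CPM in 2c3, 5a2, 2c4, 4b7 and 5a3. Clone 4b7 was the highest here as for *Zfp352* (7.41 CPM, against 2.63 to 5.11 in the other Tet1-high clones and 0.518 to 1.53 in the Tet1-low clones). A bulk library cannot tell a larger share of 2-cell-like cells from more footprints per cell. *Zscan4d* and *Zscan4-ps3* (-2.01) lie in a cluster of near-identical copies and only uniquely aligned reads were counted, so the share of reads given to each copy is uncertain. *Gm21761*, a predicted gene of chromosome 13, differed by -2.26. Neither *Zscan4-ps3* nor *Gm21761* had a Tet1-low total library over 2 CPM. Both passed the filter on low values through the Tet1-high clones alone and had to differ.

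Among separated transcripts the largest difference toward Tet1-low clones was that of the Y-linked *Uba1y* (5.58), whose values are given with the Y-linked genes. *Tex101*, a surface protein of male germ cells, had 4.58 CPM in 2b12, 4.54 in 4a2, 3.76 in 5a1 and 2.94 in 4a3, and 0.426 to 1.10 CPM in the 5 Tet1-high clones, a difference of 2.34. *Nxf7*, of the nuclear RNA export factor family, differed by 2.25 and *Tcp11x2*, an X-linked gene of the *Tcp11* family, by 1.99. *Nxf7* was too low for the IP test and *Tcp11x2* did not pass it (log2 fold change 0.87, SE 0.34, edgeR adjusted p = 0.12). *Tex101*, *Nxf7* and *Tcp11x2* had no Tet1-high total library over 2 CPM. They passed the filter on low values through the Tet1-low clones alone and had to differ.

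*Esx1*, an X-linked homeobox gene of placenta and testis, had 11.7, 18.1, 14.9 and 17.9 CPM in 2b12, 4a2, 5a1 and 4a3 against 3.84, 3.85, 4.77, 3.00 and 2.54 in 2c3, 5a2, 2c4, 4b7 and 5a3. The groups were far apart, and batch 2 alone gave 2.20 beside 2.11 over all clones. The IP log2 fold change was 2.22 (SE 0.32, edgeR adjusted p = 0.0011), and 2.49 with an adjusted p of 0.095 when the batch was a block. *Brdt*, a testis bromodomain protein, had 10.9 to 17.6 CPM in Tet1-low and 2.09 to 5.68 CPM in Tet1-high clones, a difference of 1.86.

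*Bcorl1*, a corepressor related to Bcor of a variant Polycomb complex, was close to level within each group. It had 44.5 CPM in 2b12, 48.9 in 4a2, 51.8 in 5a1 and 46.6 in 4a3, against 15.3 in 2c3, 12.6 in 5a2, 12 in 2c4, 18.9 in 4b7 and 15.2 in 5a3. The difference was 1.70 in the total libraries and 1.74 within batch 2. The IP log2 fold change was 1.68 (SE 0.11, edgeR adjusted p = 3.38e-06), and with the batch as a block it was 1.52 (adjusted p = 0.00928). *Epha4*, an ephrin receptor named here because it also passed with the block, had 153 to 170 CPM in Tet1-low and 59.6 to 96.8 CPM in Tet1-high clones.

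Of the remaining genes with the largest differences toward Tet1-low, *Hmga2*, an architectural chromatin protein, had 3.44 to 3.90 CPM against 0.664 to 1.15, a difference of 1.88. *Chst11*, a chondroitin sulfotransferase, differed by 1.85, *Mmp9*, a secreted gelatinase, by 1.76 and *Bmp1*, a procollagen protease, by 1.66. *Rhobtb1* differed by 1.89, with 4.42 to 9.76 CPM against 0.987 to 2.68. All 5 passed the IP test, with edgeR adjusted p from 0.0011 (*Bmp1*) to 0.041 (*Rhobtb1*), and none of the 5 passed with the batch as a block. *Hmga2* and *Chst11* had no Tet1-high total library over 2 CPM. Both passed the filter on low values through the Tet1-low clones alone and had to differ in the total libraries. *Hmga2* passed the filter of the IP libraries in the same way, so its IP call adds no support.

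Of the germline genes whose promoters are methylated in somatic cells, more were counted higher in Tet1-low than in Tet1-high clones. Of 51 listed genes 38 were tested in the total libraries and the rest were too low or not in the table. Of these, 8 were separated and higher in Tet1-low clones (*Brdt*, *Dpep3*, *Hormad2*, *Mov10l1*, *Sycp1*, *Sycp2*, *Taf7l* and *Tex101*; 1.45% of all transcripts) and none in the other direction (0.694%). *Tex101* passed the filter through the Tet1-low clones alone and had to differ. Without a minimum difference 19 did not overlap higher in Tet1-low (11.8% of all transcripts) and 4 higher in Tet1-high clones (11.4%). The median difference was 0.53. The IP test found 22 of 38 higher in Tet1-low (6.42% of all transcripts) and 2 higher in Tet1-high clones (5.16%; edgeR adjusted p under 0.05), with a median of 0.70. With the batch as a block none passed, and 22 had an unadjusted p under 0.05.

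*Taf7l*, an X-linked germ cell paralog of a general transcription factor subunit, had 23.9, 28.8, 17 and 14.6 CPM in 2b12, 4a2, 5a1 and 4a3 and 7.67, 7.30, 8.06, 8.68 and 7.02 CPM in 2c3, 5a2, 2c4, 4b7 and 5a3. The Tet1-high clones were nearly level while the Tet1-low clones spread. *Mov10l1*, an RNA helicase of the piRNA pathway, had 92.8, 74.5, 64.8 and 54.0 CPM against 30.7, 34.1, 32.7, 48.4 and 30.6. Here 4b7 came close to 4a3, and the difference within batch 2 was 0.74 beside 1.01 over all clones.

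The better covered germline genes differed by less. *Tex19.1*, which protects the germ line from transposons, averaged 213 ± 26.1 CPM in Tet1-low (SD, n = 4) and 164 ± 8.33 in Tet1-high clones (SD, n = 5), and *Stag3*, a meiotic cohesin subunit, 175 ± 16.8 and 117 ± 17.7. *Dazl*, an RNA-binding protein of germ cells, averaged 67.6 ± 17 and 36.4 ± 8.05, and its groups overlapped because 4b7 had 50.6 CPM and 4a3 49.4. *Hormad1*, a protein of meiotic chromosome axes, went the other way, with 80.4 ± 13 against 129 ± 20.4 (IP log2 fold change -0.60, SE 0.15, edgeR adjusted p = 0.024).

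Among 23 tested enzymes and readers of DNA methylation, *Tet1* was the 1 separated transcript. The other Tet enzymes did not mirror it: *Tet2* had 246, 293, 338 and 259 CPM in 2b12, 4a2, 5a1 and 4a3 and 237, 226, 231, 332 and 243 in 2c3, 5a2, 2c4, 4b7 and 5a3, so that the groups overlapped. *Tet3* was low in all clones, at 3.19 to 4.32 CPM in Tet1-low and 1.34 to 3.31 in Tet1-high clones. *Dnmt1*, the maintenance methyltransferase, averaged 768 ± 23.9 CPM in Tet1-low and 863 ± 26.7 in Tet1-high clones, without overlap but by -0.17 on the log2 scale. *Dnmt3b*, a de novo methyltransferase, had 145 to 199 CPM in Tet1-low clones and 166 to 175 in 4 Tet1-high clones, with 104 CPM in 4b7.

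Genes of histone H3K9 silencing leaned slightly toward Tet1-high clones. None of 22 was separated, but 10 did not overlap and were higher in Tet1-high clones, against 1 in the other direction (11.4% and 11.8% of all transcripts). The median difference was -0.16. *Trim28*, the corepressor of KRAB zinc finger proteins, averaged 2236 ± 114 CPM in Tet1-low (SD, n = 4) and 2721 ± 156 in Tet1-high clones (SD, n = 5), and its IP log2 fold change was -0.33 (SE 0.06, edgeR adjusted p = 0.0062). *Kdm3a*, an H3K9 demethylase, averaged 214 ± 10.6 and 284 ± 17.3. By the IP test 1 of the 22 was higher in Tet1-low (6.42% of all transcripts) and 3 in Tet1-high clones (5.16%).

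Core and naive pluripotency genes differed in both directions by small amounts. None of 32 tested was separated, and the median was -0.10, but 5 did not overlap higher in Tet1-low (11.8% of all transcripts) and 9 higher in Tet1-high clones (11.4%). By the IP test 4 of 32 were higher in Tet1-low (6.42% of all) and 6 in Tet1-high clones (5.16%). *Sox2* averaged 319 ± 8.19 CPM in Tet1-low (SD, n = 4) and 295 ± 8.05 in Tet1-high clones (SD, n = 5), and *Zfp42* (Rex1) 939 ± 33.4 and 932 ± 56.2. The members that lay farthest toward Tet1-low were *Tbx3* and *Klf4*, factors of naive pluripotency. *Klf4* had 228, 192, 220 and 168 CPM in 2b12, 4a2, 5a1 and 4a3 and 116, 112, 116, 156 and 115 in 2c3, 5a2, 2c4, 4b7 and 5a3. Its IP log2 fold change was 0.55 (SE 0.12, edgeR adjusted p = 0.011), and that of *Tbx3* was 0.75 (SE 0.14, edgeR adjusted p = 0.0058).

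Of 27 formative and primed pluripotency genes, 2 were separated toward Tet1-low clones (1.45% of all transcripts) and 1 toward Tet1-high (0.694%). *Sall2*, a zinc finger factor, had 23.4 to 33.0 CPM in Tet1-low and 5.84 to 12.1 in Tet1-high clones (difference 1.62, IP log2 fold change 1.58, SE 0.19, edgeR adjusted p = 0.00037). *Car14*, a carbonic anhydrase, differed by 1.43. *Fgf15*, an FGF of the early nervous system and gut, lay the other way by -1.04, and its IP value did not pass (-0.99, SE 0.32, edgeR adjusted p = 0.064). By the IP test 7 of the 27 were higher in Tet1-low (6.42% of all) and 1 in Tet1-high clones (5.16%).

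Feedback genes of the FGF and ERK pathway were among the 7: *Dusp6*, an ERK phosphatase, averaged 143 ± 33.3 CPM in Tet1-low (SD, n = 4) and 85.3 ± 13.1 in Tet1-high clones (SD, n = 5), and *Spry4*, an inhibitor of the pathway, 223 ± 33.7 and 134 ± 20.5. Of the 30 genes of the FGF receptor and ERK list tested in the IP libraries 7 were higher in Tet1-low (6.42% of all) and 1 in Tet1-high clones (5.16%). Over the 31 tested in the total libraries the median difference was 0.03. The receptor *Fgfr3*, with no Tet1-high library over 2 CPM, was the 1 separated member (0.945 ± 0.333 CPM in Tet1-high and 2.62 ± 0.949 in Tet1-low clones).

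Some markers of differentiated lineages differed with Tet1 state. Of 12 tested endoderm genes 2 were separated toward Tet1-low clones (1.45% of all transcripts). *Pdgfra*, a receptor of the primitive endoderm, had 8.01, 9.20, 9.76 and 6.5 CPM in 2b12, 4a2, 5a1 and 4a3 against 2.56, 2.65, 2.3, 4.42 and 1.94 in 2c3, 5a2, 2c4, 4b7 and 5a3, and *Amn*, amnionless, had 9.02 to 11.2 against 3.31 to 5.27. The defining endoderm factors *Gata4*, *Gata6*, *Sox17* and *Foxa2* averaged 3.02, 3.00, 1.78 and 0.517 CPM in Tet1-low clones. In Tet1-high clones they averaged 1.24, 1.57, 0.539 and 0.274, and all were below the filter in the total libraries. By the IP test 4 of 15 endoderm genes were higher in Tet1-low (6.42% of all) and 2 in Tet1-high clones (5.16%). The former were *Pdgfra*, *Amn*, *Gata4* (1.41, SE 0.38, edgeR adjusted p = 0.0316) and *Dab2* (1.25, SE 0.32, edgeR adjusted p = 0.0246). The latter were the laminins *Lama1* and *Lamc1*. Summed over the 21 endoderm genes with a count, of which laminins make up most, the level was 2108 to 2261 CPM in Tet1-low and 2374 to 2661 in Tet1-high clones. The share of endoderm-like cells in either group was not tested.

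Of 7 tested fibroblast and feeder genes 2 were separated toward Tet1-low clones (*Thy1* by 1.12 and *Col1a1* by 1.02; 1.45% of all transcripts). The summed level of the whole list was 145 to 181 CPM in Tet1-low and 104 to 125 in Tet1-high clones. The defining fibroblast genes *Dcn*, *Lum*, *Postn* and *Col3a1* averaged at most 0.130 CPM in Tet1-low and 0.193 in Tet1-high clones, near 0 in both groups. *Eomes*, a T-box factor of the primitive streak and trophoblast, had 27.5, 21.4, 23.8 and 20.6 CPM in the Tet1-low clones 2b12, 4a2, 5a1 and 4a3 and 6.82, 7.57, 7.08, 8.99 and 8.07 in 2c3, 5a2, 2c4, 4b7 and 5a3 (difference 1.59, IP log2 fold change 1.66, SE 0.20, edgeR adjusted p = 0.0004). *T* (Brachyury) and *Mixl1*, which mark the primitive streak, averaged under the filter in both groups. *Sp5*, a target of Wnt signalling, was separated the other way by -1.09, but it had no Tet1-low library over 2 CPM and had to differ.

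Neuroectoderm genes differed in both directions. Of 8 tested, *Pax6* and *Neurod1* were separated toward Tet1-high clones (0.694% of all transcripts). *Gfap*, an intermediate filament of astrocytes, was separated toward Tet1-low clones (1.48, with 2.33 to 3.11 against 0.494 to 1.42 CPM, and 1.45% of all transcripts). Each of these passed the filter only through the clone group where it was higher, so each had to differ. The median over the 8 was -0.12. *Nes*, nestin, averaged 27.3 ± 3.16 and 25.4 ± 4.90, and *Sox1* 1.76 and 2.18. *Ncam1*, a neural cell adhesion molecule, averaged 78.0 ± 12.2 in Tet1-low (SD, n = 4) and 134 ± 11.3 in Tet1-high clones (SD, n = 5), without overlap. Of 7 trophectoderm genes *Esx1* was separated, toward Tet1-low clones (1.45% of all transcripts), and the median was 0.65. By the IP test 3 of 7 were higher in Tet1-low (6.42% of all) and 0 in Tet1-high clones (5.16%), namely *Esx1*, *Krt18* and *Krt8*. In the total libraries *Krt18* averaged 43.8 and 28.4 CPM and *Krt8* 43.2 and 33.3, with overlap. *Gata3*, below the filter, lay the other way (0.296 and 0.939 CPM). The defining factors *Cdx2* and *Elf5* averaged at most 0.368 CPM in either group.

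Of 32 tested cyclins, Cdks and inhibitors, *Ccnd2* was separated toward Tet1-high clones (0.694% of all transcripts). *E2f2*, an E2F factor, was separated toward Tet1-low clones (1.05, with 1.45% of all transcripts). Without a minimum difference 7 did not overlap higher in Tet1-high (11.4% of all) and 3 higher in Tet1-low clones (11.8%). By the IP test 4 of 31 were higher in Tet1-high (5.16% of all) and 1 in Tet1-low clones (6.42%). *Ccnd1*, cyclin D1, had 96.7, 70.8, 103 and 96.7 CPM in 2b12, 4a2, 5a1 and 4a3 and 173, 156, 190, 114 and 176 CPM in 2c3, 5a2, 2c4, 4b7 and 5a3. It was higher in every Tet1-high clone, and its IP log2 fold change was -0.84 (SE 0.13, edgeR adjusted p = 0.0017). *Cdk6*, which binds D cyclins, averaged 19.3 ± 2.01 and 36.1 ± 4.85. The mitotic *Ccnb1* averaged 775 ± 17.7 and 808 ± 26.8, with overlap.

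Of 33 imprinted genes 1 was separated toward Tet1-low clones (*Calcr*, the calcitonin receptor, 1.14; 1.45% of all transcripts) and 2 toward Tet1-high (0.694%). *Peg3*, a paternally expressed zinc finger gene, had 32.0, 26.6, 29.8 and 31.9 CPM in 2b12, 4a2, 5a1 and 4a3 and 72.7, 75.3, 80.0, 58.8 and 89.2 in 2c3, 5a2, 2c4, 4b7 and 5a3, and *Ddc*, dopa decarboxylase, had 9.20 to 10.5 against 13.6 to 25.4. *Peg3* passed the IP test (-1.24, SE 0.13, edgeR adjusted p = 0.00024). By the IP test 2 of 32 imprinted genes were higher in Tet1-low (6.42% of all) and 8 in Tet1-high clones (5.16%), and with the batch as a block 1 passed, *Mcts2* (-1.70, edgeR adjusted p = 0.0477). *Mcts2* has a close relative, *Mcts1*, that can share its reads.

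The other lists held at most 1 separated member in each direction (1.45% and 0.694% of all transcripts). *Bcorl1* was the 1 separated member of 31 Polycomb genes, and *Ezh2*, the H3K27 methyltransferase, averaged 285 ± 4.32 in Tet1-low (SD, n = 4) and 312 ± 17.6 CPM in Tet1-high clones (SD, n = 5). *Pmaip1* (Noxa), a proapoptotic p53 target, was the 1 of 25 p53 genes (17 to 19.6 against 6.72 to 11.4 CPM), while *Trp53* itself averaged 628 ± 36.0 and 689 ± 36.9. By the IP test 2 of 26 p53 genes were higher in Tet1-low (6.42% of all) and 5 in Tet1-high clones (5.16%). In the Nodal, BMP and Wnt list *Bmp7*, a BMP ligand, was separated toward Tet1-low (1.30) and *Sp5* toward Tet1-high clones, and 11 of 35 did not overlap higher in Tet1-low clones (11.8% of all) against 2 higher in Tet1-high (11.4%). Of 33 tested in the IP libraries 5 were higher in Tet1-low (6.42% of all) and 1 in Tet1-high clones (5.16%). None of 20 stress response genes and none of 20 cholesterol genes was separated. By the IP test 1 of 19 stress response genes was higher in Tet1-low (6.42% of all) and 3 in Tet1-high clones (5.16%). No cholesterol gene passed it with edgeR, voom or DESeq2, and edgeR gave 3 of them an unadjusted p under 0.05.

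Y-linked genes varied by clone and only in part with Tet1 state. *Eif2s3y*, a subunit of a translation initiation factor, had 130 CPM in 2b12, 122 in 4a2, 99.9 in 5a1 and 112 in 4a3, and it had 146 CPM in the Tet1-high clone 2c3. In the other Tet1-high clones it had 1.73 in 5a2, 0.658 in 2c4, 0 in 4b7 and 4.48 in 5a3. So 4 of the 5 Tet1-high clones held almost no footprints of it, while 2c3 was at the level of the Tet1-low clones. Its IP log2 fold change was 1.22 (SE 0.78, edgeR adjusted p = 0.33).

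*Uty*, a histone demethylase paralog, and *Ddx3y*, an RNA helicase, broke the pattern in both groups. *Uty* had 52.0 CPM in 2b12 and 69.5 in 4a2 but 2.09 in 5a1 and 1.59 in 4a3, and 62.1 in 2c3. *Ddx3y* had 25.7 in 2b12, 181 in 4a2, 7.25 in 5a1, 6.63 in 4a3 and 112 in 2c3. In the other Tet1-high clones *Uty* was at most 0.398 and *Ddx3y* at most 1.94 CPM. *Uba1y*, a ubiquitin-activating enzyme, was the 1 separated Y-linked gene: it had 50.3, 56.5, 25.5 and 31.5 CPM in 2b12, 4a2, 5a1 and 4a3, 10.7 in 2c3, and 0 to 1.33 in the other Tet1-high clones. It passed the IP test (3.31, SE 0.51, edgeR adjusted p = 0.0018), and did not with the batch as a block (1.32, adjusted p = 0.158). Without the IP library of 2c3 its log2 fold change was 5.79, and without that of 4b7 2.82. The direction of *Uty* turned, from 4.33 over all total libraries to -1.70 within batch 2 and from 0.94 in the IP libraries to -4.56 with the block. *Ddx3y* turned likewise (3.46 to -0.11 and 0.98 to -4.00), as did *Eif2s3y* in the IP libraries (1.22 to -0.38).

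**Figure D4:**
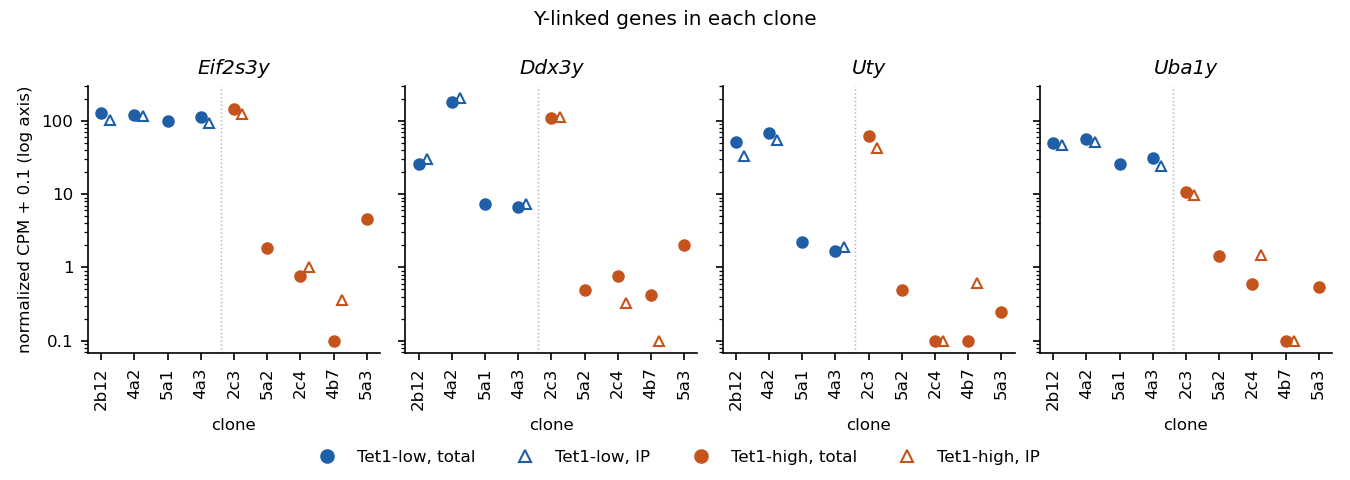
Normalized CPM plus 0.1 (log axis) of 4 Y-linked genes in each clone, with filled circles for total and open triangles for IP libraries, blue for Tet1-low and orange for Tet1-high clones. Clone 2c3 keeps the level of the Tet1-low clones in *Eif2s3y*. In *Ddx3y* and *Uty* it lies between 2b12 and 4a2, far above the Tet1-low clones 5a1 and 4a3. Clones 5a2, 2c4, 4b7 and 5a3 lie near the bottom of the axis.

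Summed over the Y chromosome, total libraries held 1072 to 3394 counts in Tet1-low clones and 2420 in 2c3, against 106 in 5a2, 79 in 2c4, 32 in 4b7 and 127 in 5a3. No other chromosome stood out in any clone. For each autosome and the X chromosome, the median deviation of a total library from the mean of all total libraries lay between -0.04 and 0.05 on the log2 scale.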

How the data were processed

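Ribosome-protected fragments of 9 total and 6 IP libraries were analysed. Per the labels and the study's methods, the authors trimmed reads (cutadapt 2.4), removed PCR duplicates by UMI (UMI-tools 1.0.1), aligned to a GRCm38 transcriptome of canonical GENCODE VM20 transcripts (Bowtie2 2.3.4.3) and deposited raw counts of uniquely aligned A sites per coding sequence, leaving out its ends. Clones were grouped by *Tet1* in the total libraries. The members, lists and rules were chosen with earlier results of these data known.

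From the counts, 21713 of 21727 transcripts were named through GENCODE M21, and 13 mitochondrial ones were left out. Transcripts with over 2 CPM in at least 4 of 9 total libraries, or 3 of 6 IP libraries, were kept (10950 and 10909). Libraries were scaled by TMM (edgeR 4.0.16) within each fraction, log2 values had 0.5 counts added, and IP counts were tested by edgeR's quasi-likelihood F-test with Benjamini-Hochberg adjustment (R 4.3.3, limma 3.58.1, DESeq2 1.42.0 and Python 3.11.15 for the rest). Its spread is that between clones. The procedure was tested on simulated data. Named genes were *Tet1*, *Ccnd2*, the 12 largest differences in each direction whose IP libraries also did not overlap, separated list members, the best covered members of each list and neighbours within 1 Mb; genes named outside this rule are said to be so or were chosen after their values were seen. The 20 lists are those plotted.

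Replicate numbers pair samples because the sample labels give the same number as the sequencing batch. The study's methods do not use that name. They pooled the barcoded fragments of each replicate before rRNA depletion, so the batch also covers the later steps of library preparation. Deviations of same-numbered libraries correlated by -0.164 to 0.713 (24 pairs, median 0.443). Alternatives were other scalings, filters, added counts and tests, the batch as a block, the cell line as a covariate, and leaving out each clone.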

Additional observations from a re-analysis of the deposited data

Results flagged for a closer look

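In 48 groups of values (the 24 genes with the largest differences, in each clone group of the total libraries), 5 held a clone far from the rest by Dixon's gap ratio, where chance flags about 5% of groups. *Mpi* in 4a2 (18.0 CPM, against 1.53 to 2.29 in the other Tet1-low clones) had a ratio of 0.842. *Ccnd2* was high in 5a1 among the Tet1-low clones (7.11 CPM against 4.29 to 4.67, ratio 0.835) and in 5a3 among the Tet1-high clones (69.6 CPM against 33.5 to 41.2, ratio 0.719). *Mmp9* was low in 5a3 (0.598 CPM against 1.89 to 2.65 in the other Tet1-high clones, ratio 0.770), and *Bmp1* was low in 5a1 (8.64 CPM against 11.1 to 11.4 in the other Tet1-low clones, ratio 0.887). None of these values closed the gap between the clone groups. The clones 5a1 and 5a3, both wild-type, account for 4 of the 5.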

How the results depend on the processing

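For the genes named for the largest differences, whose IP libraries also did not overlap, no direction reversed. The larger of the IP counts moved from Tet1-low to Tet1-high with the batch as a block. The Y-linked *Uty*, *Ddx3y* and *Eif2s3y*, which did not pass the edgeR test without the block, turned with it (log2 fold changes of -4.56, -4.00 and -0.38, against 0.94, 0.98 and 1.22). With voom, also without the block, 2 of 4 tested Y-linked genes passed. The counts of separated transcripts (159 higher in Tet1-low, 76 higher in Tet1-high) depended on the filter, the count added and the minimum difference: they were 77 and 40 with over 2 CPM required in at least 14 of 15 libraries, 317 and 208 with no filter, 44 and 29 with over 10 CPM required in 4 total libraries, and 631 and 296 at a minimum difference of 0.5. With 5 counts added they were 87 and 61. Leaving out each clone gave 150 to 214 and 67 to 101, and raw CPM gave 201 and 65. Within sequencing batch 2, the pairing of clones by batch, 178 and 103 transcripts did so, of which 99 and 55 were shared.

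For the IP libraries (700 and 563) the replicate block gave 4 and 8, with 1262 transcripts at an unadjusted p under 0.05 against 3071 without it. Since batches 1 and 3 hold 1 state each, that fit rests on 4a3 and 2c3. DESeq2 gave 422 and 387, no filter 1067 and 822, and leaving out each clone 223 to 958 and 151 to 814. Of 22 named genes tested in the IP libraries, 17 lost their call under the block and 4 (*Mpi*, *Uba1y*, *Tex101*, *Rhobtb1*) with DESeq2. *Rhobtb1* and *Tex101* also lost it without 2b12, 4a2 or 2c4, and *Rhobtb1* without 2c3 or with the cell line as a covariate. Most separated transcripts had under 10 CPM, which limits the precision of their differences, and 1 total library per clone leaves clone and library spread together.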

Other observations

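Hedgehog signalling genes, a list chosen after its values were seen, differed in both directions: of 14 tested, 3 did not overlap higher in Tet1-low (11.8% of all transcripts) and 4 higher in Tet1-high clones (11.4%), and the median difference was 0.04. Hedgehog ligands act through Smo, and the pathway's own targets include the receptor *Ptch1*, the ligand-binding *Hhip* and the transcription factor *Gli1*. *Hhip* had 4.70, 2.98, 5.30 and 5.64 CPM in 2b12, 4a2, 5a1 and 4a3 and 14.9, 17.4, 20.4, 14.2 and 21.8 CPM in 2c3, 5a2, 2c4, 4b7 and 5a3. *Gli1* had 10.9 to 15.8 against 21.1 to 33.8 CPM and *Ptch1* 20.7 to 35.1 against 39.0 to 59.6. None of these 3 genes overlapped between the groups, and all 3 passed the IP test, with log2 fold changes of -1.90 (*Hhip*, SE 0.33, edgeR adjusted p = 0.004), -1.12 (*Gli1*) and -0.44 (*Ptch1*, SE 0.12, edgeR adjusted p = 0.035). Of the 14 tested genes of the list none passed with the batch as a block, and 4 had an unadjusted p under 0.05. The ligands *Shh*, *Ihh* and *Dhh* had under 1 CPM in every total library. *Sufu* and *Kif7*, which act inside the cell in the pathway, passed the IP test toward Tet1-low clones (0.41, SE 0.12, and 0.47, SE 0.14, edgeR adjusted p = 0.040 and 0.043), and the total difference of *Smo* was 0.46.

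Antigen presentation genes, also listed after their values were seen, were higher in Tet1-low clones in 4 of 18 tested cases (*H2-K1*, *H2-Q4*, *H2-DMa* and *Tap2*; 1.45% of all transcripts were separated in this direction). The summed level of the list ran the other way, at 3150 to 3600 CPM in Tet1-low and 3454 to 3953 in Tet1-high clones, and the chaperones *Calr* and *Canx* passed the IP test toward Tet1-high clones. *H2-K1*, a class I heavy chain, had 40.5, 36.6, 47.0 and 37.5 CPM in 2b12, 4a2, 5a1 and 4a3 and 12.2, 18.7, 16.0, 16.2 and 21.5 in 2c3, 5a2, 2c4, 4b7 and 5a3, and its close relatives can share its reads. Of 28 tested meiosis genes, also listed after their values were seen, 7 were separated toward Tet1-low clones (1.45% of all), 4 of them already counted among the germline genes. Of the 7, 2 had no Tet1-high library over 2 CPM and had to differ. The highest of the 7 in level was *Stra8*, the retinoic acid target that starts meiosis, with 101, 107, 86.7 and 69.9 CPM against 40.5, 30.7, 29.8, 51.7 and 25.5 (difference 1.38, within batch 2 0.99, IP log2 fold change 1.29, SE 0.17, edgeR adjusted p = 0.00066). Of 7 further 2-cell-like genes, chosen after their values were seen, 4 were separated toward Tet1-high clones (0.694% of all). These 4 had no Tet1-low library over 2 CPM and had to differ, so their count supports nothing.

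*Nnat*, the imprinted neuronatin gene, switched between clones without following Tet1 state: it had 3.56 CPM in 4a3, 3.84 in 2c3, 5.43 in 2c4 and 4.89 in 4b7, and at most 0.299 CPM in the other 5 clones, the wild-type clones among them. *Impact*, another imprinted gene, had 331 CPM in 2c3 against 107 to 181 in the other 8 clones.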
